A study of Mus musculus with 48 samples.

Results

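Immediate early response genes were followed in mouse embryonic stem cells after transcription had been blocked. The genes were taken from a list of 10 names (Fos, Jun, Junb, Jund, Egr1, Ier2, Ier5, Atf3, Dusp1 and Klf6) and matched by gene identifier to mouse symbols, of 23862 gene identifiers in all. Values were found for 8 of them, whereas Egr1 and Atf3 were listed in no library and are not analysed here. E14TG2a cells, an embryonic stem cell line grown without feeder cells on gelatin in 2i + LIF medium, received flavopiridol at 1 µM, which blocks the kinase needed for paused RNA polymerase II to elongate. Polyadenylated RNA from 3 independently passaged cultures was sequenced after 30, 60, 120 and 240 min, in whole-cell extracts (total RNA) and in nucleus, cytosol and membrane fractions, which gave 48 libraries. All groups received flavopiridol, and no untreated group beyond the 0 min level was analysed here. The medium contained PD0325901, which inhibits the MEK kinases, and cycloheximide, an inhibitor of translation, was present in the harvest and fractionation buffers of all groups. Each value is a ratio to the level of the same gene at 0 min of that fraction, and it follows a gene over time inside its fraction but does not tell how much of a transcript each fraction held.

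Immediate early genes are switched on by growth factors, stress and other signals without new protein synthesis, mostly through kinase cascades acting on transcription factors already bound at their promoters. Fos, Jun, Junb and Jund encode basic leucine zipper proteins that pair to form the AP-1 transcription factor, Egr1 and Klf6 encode zinc finger transcription factors, and Atf3 encodes a stress-induced relative of the AP-1 proteins. Dusp1 encodes a phosphatase that inactivates MAP kinases, and Ier2 and Ier5 encode nuclear proteins induced by the same signals. Transcripts of this class are known for rapid turnover, and AU-rich elements in their 3′ UTRs, often with the pentamer AUUUA, are the classical sequences linked to it.

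Windows around ATTTA are shown for Fos, Dusp1, Jun and Klf6, with several copies in the 3′ UTR. The window of Jund, which has a single copy, is shown as well. Each window of 30 bases lies in the 3′ UTR of the annotated transcript (GRCm38), is written 5′ to 3′ on the transcript strand with T for U, and has ATTTA in capitals.
Fos: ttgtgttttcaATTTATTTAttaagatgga
Dusp1: agctggtccttATTTATTTAacacccccct
Jun: gatcATTTAtaatcataggaaagATTTAgt
Klf6: ttgtataagctgtATTTAcaaatcgcagtg
Jund: ccgattccgccctATTTAtgtttctactcg
The Fos window lies at chr12:85477100-85477129 on the plus strand, the Dusp1 window at chr17:26506157-26506186 on the minus strand and the Jun window at chr4:95049208-95049237 on the minus strand. The Klf6 window lies at chr13:5868009-5868038 and the Jund window at chr8:70700358-70700387, both on the plus strand. The 3′ UTR held ATTTA 4 times in Fos, Jun and Dusp1, 7 times in Klf6, 2 times in Junb and Ier5, and 1 time in Jund. The 3′ UTR of Ier2, of 755 bases, held none. Half-lives fitted below ran over the fractions from 15.5 to 19.3 min for Ier2. They ran from 12.4 to 21.1 min for Junb, from 8.28 to 36.8 min for Ier5 and from 55.3 to 119 min for Jund. For the genes with more copies they ran from 5.85 to 18.1 min (Fos), 10.8 to 14.4 min (Dusp1), 19.6 to 38.7 min (Jun) and 16.8 to 23.6 min (Klf6). A link between the number of copies and the decline was not tested. On the transcript strand ATTTA was found at least 3 times in 4 of the 8 genes and in 32.6% of all 13863 genes with an annotated 3′ UTR. The longer TTATTTATT, which contains ATTTA, was found in Fos and Dusp1 and in 7.08% of all genes. Jun, Junb, Jund, Ier2 and Ier5 have a single exon (5 of 8, against 4.07% of all genes), and Fos, Dusp1 and Klf6 have 4 exons. A match of these letters is a description of the sequence and shows no bound factor.

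Libraries listed between 15067 and 19501 genes, and a gene at 0 is not listed. The nuclear 30 min library of replicate 1 had a median ratio of 0.555 over its genes, against 0.934 and 0.805 in replicates 2 and 3, and all 8 immediate early genes were lowest in it. Values from that time point are therefore also given without it where a call changed. Junb, Jund, Ier2 and Klf6 were listed in all 48 libraries, Jun in 44, and Fos, Ier5 and Dusp1 in 43 each. All gaps fell at 60 min or later. The files state no read depth. Once each library was divided by a factor of its own, however, the values of a gene within a fraction were whole multiples of a smallest step (within 0.02 of a whole number), which gives a relative depth. Of 500 genes drawn per fraction from those listed throughout, between 86.2% and 90.0% had such steps. Because of the library factors the same number of steps can stand for different ratios. At 30 min Fos stood at 5 to 15 steps and Ier5 at 9 to 19, whereas Junb stood at 56 to 141 and Ier2 at 349 to 1113. After 60 min Fos, Jun and Ier5 stood at 7 steps or fewer where listed, so differences among their late values are differences of a few steps. The steps were not used in any test, and they show that the libraries of a fraction were divided by 1 common 0 min level per gene. The error of that level is thus not in the spread between replicates, and p-values for 30 min against 0 min leave it out. All 8 embryonic stem cell markers were listed (among them Pou5f1, Nanog and Sox2), 6 of them in every library. Of 4 fibroblast markers all were listed but none in every library, and of 4 primitive endoderm markers 2 were listed. Ratios carry no level, so the share of other cells could not be measured.

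Among the AP-1 genes, Fos (ENSMUSG00000021250, chromosome 12, 85473890 to 85477273, plus strand) was already low at 30 min. Its ratios in total RNA were 0.249, 0.187 and 0.192 at 30 min, 0.0237, 0.0226 and 0.0994 at 60 min, 0.0711, 0.0217 and 0.0215 at 120 min, and 0.0475, 0.0166 and 0.0172 at 240 min. The 3 values at 30 min lay above all later ones, which overlapped with each other. In such bulk samples a fall in fewer cells and a fall in RNA per cell cannot be told apart. In the cytosol the ratios were 0.292, 0.223 and 0.285 at 30 min, 0.0737, 0.113 and 0.0580 at 60 min, 0.0171, 0.0171 and 0.0168 at 120 min, and 0.0460, 0.0438 and 0.0312 at 240 min. The 120 min values correspond to 1 step in each library and those at 240 min to 2 or 3 steps. In the nucleus Fos was 0.0988, 0.311 and 0.255 at 30 min and was listed in 1 of 3 libraries at 60 min (0.0189), and in the membrane fraction it fell from 0.198 ± 0.028 (SD, n = 3) at 30 min to 0.0296 ± 0.0138 at 60 min.

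Jun (ENSMUSG00000052684, chromosome 4, 95049034 to 95052222, minus strand), the partner of Fos, kept more of its starting level at 30 min. In total RNA its ratios were 0.548, 0.558 and 0.500 at 30 min and 0.240, 0.168 and 0.234 at 60 min, with no overlap between the time points. It was then 0.0838 and 0.0293 in replicates 1 and 2 at 120 min and not listed in replicate 3, and 0.0427, 0.0783 and 0.0116 at 240 min. In the nucleus Jun was 0.269, 0.449 and 0.736 at 30 min, a wide spread, and 0.0719, 0.0751 and 0.0210 at 240 min. In the cytosol it was 1.01, 0.534 and 0.555 at 30 min, and at 240 min it was listed in replicate 3 only (0.0158). In the membrane fraction the values at 30 min (0.433, 0.355 and 0.279) and 60 min (0.327, 0.103 and 0.146) overlapped.

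Junb (ENSMUSG00000052837, chromosome 8, 84974484 to 84978718, minus strand), whose protein can replace Jun in AP-1, fell to a few percent of its starting level in each fraction. In total RNA the ratios were 0.437, 0.316 and 0.292 at 30 min, 0.144, 0.0890 and 0.156 at 60 min, 0.0286, 0.0117 and 0.00768 at 120 min, and 0.0539, 0.0267 and 0.0401 at 240 min. In the cytosol they were 0.706, 0.567 and 0.546 at 30 min, 0.132, 0.0915 and 0.114 at 60 min, 0.0263, 0.00440 and 0.0173 at 120 min, and 0.0394, 0.0262 and 0.0120 at 240 min. The 30 min values lay above the 60 min values without overlap in both, and those at 120 and 240 min overlapped. At 30 min the mean ratio was 0.606 ± 0.087 in the cytosol, 0.425 ± 0.047 in the membrane fraction and 0.379 ± 0.138 in the nucleus (SD, n = 3).

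Jund (ENSMUSG00000071076, chromosome 8, 70698949 to 70700616, plus strand), the AP-1 member that many resting cells also express, stood apart from the other 7 genes. In total RNA its ratios were 1.08, 0.615 and 0.592 at 30 min, 0.813, 0.680 and 0.746 at 60 min, 0.320, 0.322 and 0.222 at 120 min, and 0.215, 0.405 and 0.385 at 240 min. The 30 and 60 min values overlapped, as did those at 120 and 240 min. In the cytosol the ratios were 1.64, 0.947 and 1.19 at 30 min, 0.757, 0.642 and 0.688 at 60 min, 0.452, 0.392 and 0.402 at 120 min, and 0.171, 0.225 and 0.198 at 240 min, with no overlap between time points. In the nucleus Jund reached 0.355 ± 0.016 by 60 min and 0.129 ± 0.028 at 240 min, and in the membrane fraction it was 1.07 ± 0.29 at 30 min and 0.210 ± 0.071 at 240 min (SD, n = 3). At 240 min its mean was the highest of the 8 in each fraction, and no value of Jund lay below 0.103.

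Klf6 (ENSMUSG00000000078, chromosome 13, 5861482 to 5870394, plus strand), a zinc finger transcription factor, declined through all 4 time points. In total RNA its ratios were 0.502, 0.633 and 0.553 at 30 min, 0.168, 0.122 and 0.190 at 60 min, 0.0255, 0.0288 and 0.0262 at 120 min, and 0.0109, 0.0150 and 0.0146 at 240 min. In the cytosol they were 0.561, 0.522 and 0.736 at 30 min, 0.214, 0.158 and 0.227 at 60 min, 0.0201, 0.0210 and 0.0162 at 120 min, and 0.00655, 0.00545 and 0.00665 at 240 min. In the nucleus they were 0.470, 0.657 and 0.579 at 30 min, 0.208, 0.167 and 0.259 at 60 min, 0.105, 0.0652 and 0.0692 at 120 min, and 0.0430, 0.0464 and 0.0221 at 240 min. No time points overlapped in these 3 fractions, and from 120 min on each nuclear ratio lay above each cytosolic one. The membrane fraction lay between them, with 0.0448 ± 0.0120 at 120 min and 0.0199 ± 0.0048 at 240 min (SD, n = 3).

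Ier2 (ENSMUSG00000053560, chromosome 8, 84661331 to 84662852, minus strand), a nuclear protein gene, had the highest step numbers of the 8 at 30 min. In total RNA its ratios were 0.460, 0.364 and 0.379 at 30 min, 0.142, 0.125 and 0.132 at 60 min, 0.0249, 0.0225 and 0.0222 at 120 min, and 0.0253, 0.0195 and 0.0203 at 240 min. The values at 120 and 240 min overlapped, and the other time points did not. In the cytosol the mean went from 0.522 ± 0.054 at 30 min to 0.135 ± 0.023, 0.0249 ± 0.0033 and 0.0145 ± 0.0033 at 60, 120 and 240 min (SD, n = 3). The nuclear means were 0.381 ± 0.065, 0.105 ± 0.015, 0.0493 ± 0.0099 and 0.0288 ± 0.0064 at these times. Membrane Ier2 was 0.441 ± 0.038 at 30 min and 0.0261 ± 0.0095 at 240 min.

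Ier5 (ENSMUSG00000056708, chromosome 1, 155096361 to 155099636, minus strand), a gene of the same naming group with few steps, was at 0.155, 0.265 and 0.237 in total RNA at 30 min and at 0.0361, 0.0688 and 0.0757 at 60 min. In the nucleus its ratios were 0.212, 0.416 and 0.250 at 30 min, 0.133, 0.0844 and 0.154 at 60 min, 0.113, 0.0815 and 0.0593 at 120 min, and 0.0133, 0.0239 and 0.0117 at 240 min. The nuclear values at 60 and 120 min overlapped, and those at 240 min, at 1 or 2 steps, lay below them. In the cytosol Ier5 fell from 0.368 ± 0.036 at 30 min to 0.0577 ± 0.0395 at 60 min (SD, n = 3) and was listed only in replicate 2 at 120 and 240 min (0.0347 and 0.0444).

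Dusp1 (ENSMUSG00000024190, chromosome 17, 26505590 to 26562128, minus strand), the MAP kinase phosphatase, reached the lowest mean levels of the 8 at 120 min in total RNA, cytosol and membrane. At that time Dusp1 stood at 1 to 8 steps over the fractions, so this rank rests on few steps. Its ratios in total RNA were 0.287, 0.470 and 0.415 at 30 min, 0.0869, 0.0386 and 0.0668 at 60 min, and 0.00868, 0.00530 and 0.00524 at 120 min. In the cytosol they were 0.264, 0.305 and 0.375, then 0.0416, 0.0282 and 0.0655, and then 0.00964, 0.00645 and 0.00950 at these times. These time points did not overlap in either. In the nucleus Dusp1 was 0.246 ± 0.028 at 30 min, 0.0530 ± 0.0064 at 60 min and 0.0313 ± 0.0071 at 120 min, and in the membrane fraction it was 0.289 ± 0.047, 0.0460 ± 0.0070 and 0.00559 ± 0.00042 (SD, n = 3). At 240 min it was listed in 2 of 3 total, 1 of 3 nuclear, 3 of 3 cytosolic and 1 of 3 membrane libraries.

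**Figure D1:**
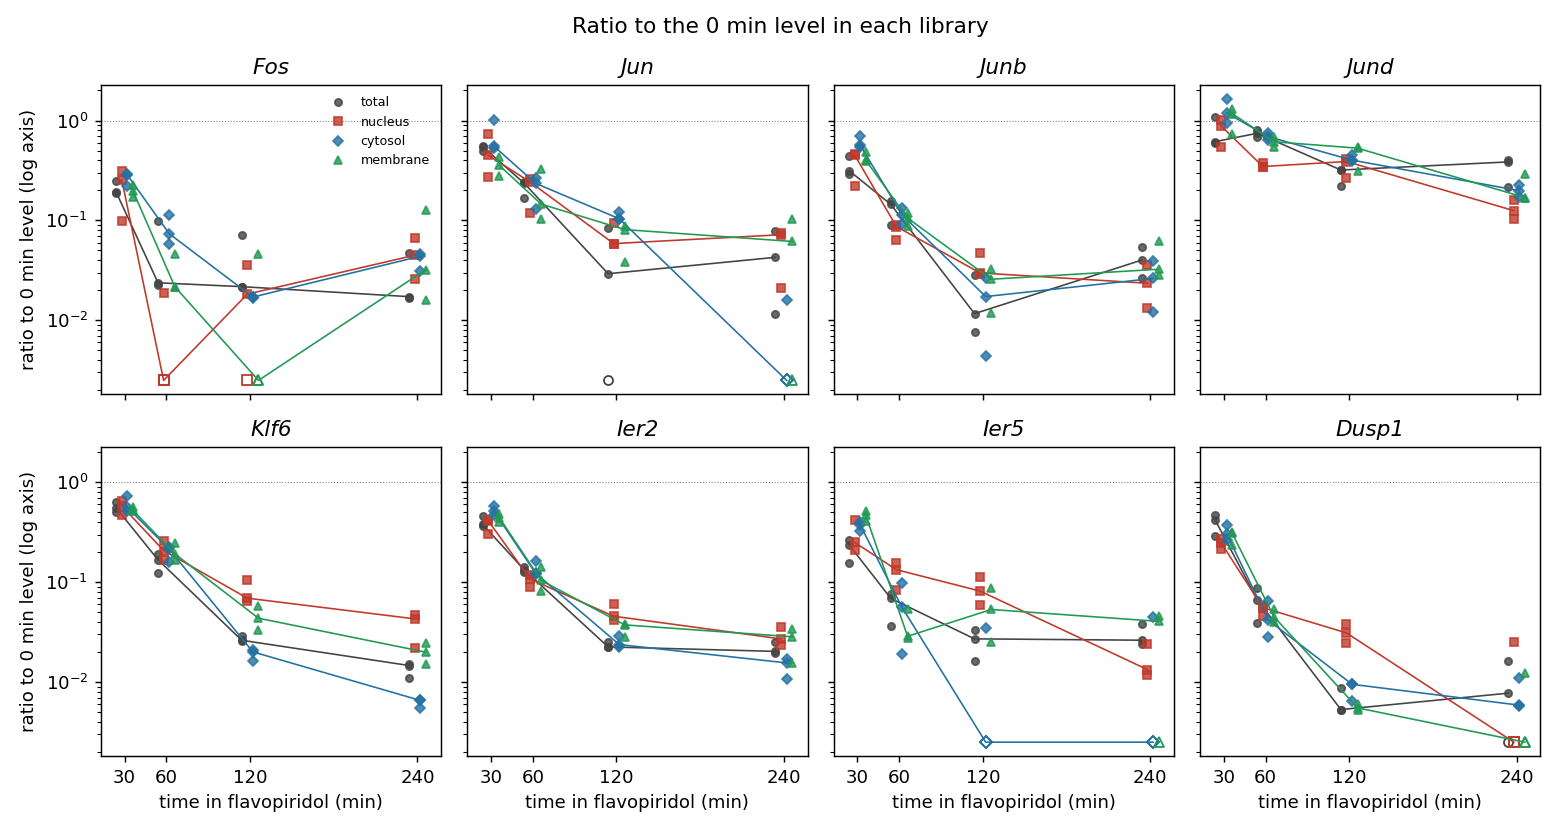
Ratio to the 0 min level (log axis) against time in flavopiridol in min for the 8 listed immediate early genes, 1 filled point per library, coloured by fraction and shifted slightly in time for display. Lines join the medians of 3 replicates, and open symbols at the bottom edge mark libraries in which the gene was not listed. Jund stays above 0.103 in every library, whereas the other genes drop below 0.1 by 240 min except for 2 membrane values, of Fos at 0.126 and Jun at 0.103.

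The first comparison asked whether the genes fell over the time course. In the fit of genes listed throughout, with the deposited scaling, each of the tested immediate early genes fell, but the calls depended on the scaling and the filter. Slopes of the log2 ratio on time were fitted with limma over all genes that every 1 of the 12 libraries of a fraction listed (Benjamini-Hochberg adjusted p under 0.05). In total RNA 6 of 6 tested immediate early genes fell (Fos, Junb, Jund, Ier2, Ier5 and Klf6), against 56.9% falling and 3.39% rising among all tested genes. For the nucleus 6 of 6 fell (Jun, Junb, Jund, Ier2, Ier5 and Klf6), against 61.9% falling and 3.32% rising among all genes. For the cytosol 6 of 6 fell (Fos, Junb, Jund, Ier2, Dusp1 and Klf6), against 67.1% of all genes falling and 2.95% rising. In the membrane fraction 4 of 4 fell (Junb, Jund, Ier2 and Klf6), against 62.2% falling and 4.09% rising. Falling was thus common among all genes, and the genes missing from these fits were those that dropped out of some libraries. With genes not listed taken as 0 and 0.1 added to all ratios, all 8 could be fitted. Then 6 of 8 fell in total RNA (43.0% of all genes), 7 of 8 in the nucleus (45.6%), 8 of 8 in the cytosol (51.0%) and 6 of 8 in the membrane fraction (47.8%). The genes without a call in that fit were Fos in total RNA, nucleus and membrane, and Ier5 in total RNA and membrane. Most of their ratios from 60 min on lay below the added 0.1, which flattens such slopes by construction.

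The slopes differed in size among the genes. Klf6 was steepest in total RNA, cytosol and membrane, at -1.45 ± 0.20, -1.84 ± 0.20 and -1.30 ± 0.16 log2 per h (SE; limma adjusted p = 3.3e-05, 3.69e-06 and 9.01e-06), where the medians of all genes were -0.22, -0.28 and -0.26. Its cytosolic slope was lower than that of all but 0.134% of genes. In the nucleus Ier5 was steepest at -1.12 ± 0.12 (limma adjusted p = 3.74e-06), followed by Klf6 at -1.06 ± 0.14, with a median of all genes of -0.30. Ier2 fell by 1.12 ± 0.21 log2 per h in total RNA and by 1.37 ± 0.21 in the cytosol. Jund had the shallowest slope in total RNA, at -0.38 ± 0.11 (limma adjusted p = 0.0112), and 32.4% of all genes fell at least as steeply. In the cytosol Jund fell by 0.71 ± 0.07 and Fos by 0.66 ± 0.26 log2 per h. The slope of Fos is that of a gene near its lowest step from 60 min on. With libraries centred on their median gene, 2 of 6 genes in total RNA fell (Ier2 and Klf6), where 30.9% of all genes fell and 28.6% rose, so this count is near the share of all genes. Jund was then at -0.15. Centred counts in the other fractions were 6 of 6 for the nucleus (29.5% of all genes fell and 28.9% rose), 5 of 6 for the cytosol (33.3% and 27.9%) and 3 of 4 for the membrane fraction (31.1% and 27.9%). Without replicate 2 and with the deposited scaling the number in total RNA was 3, beside 48.8% of all genes.

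**Figure D2:**
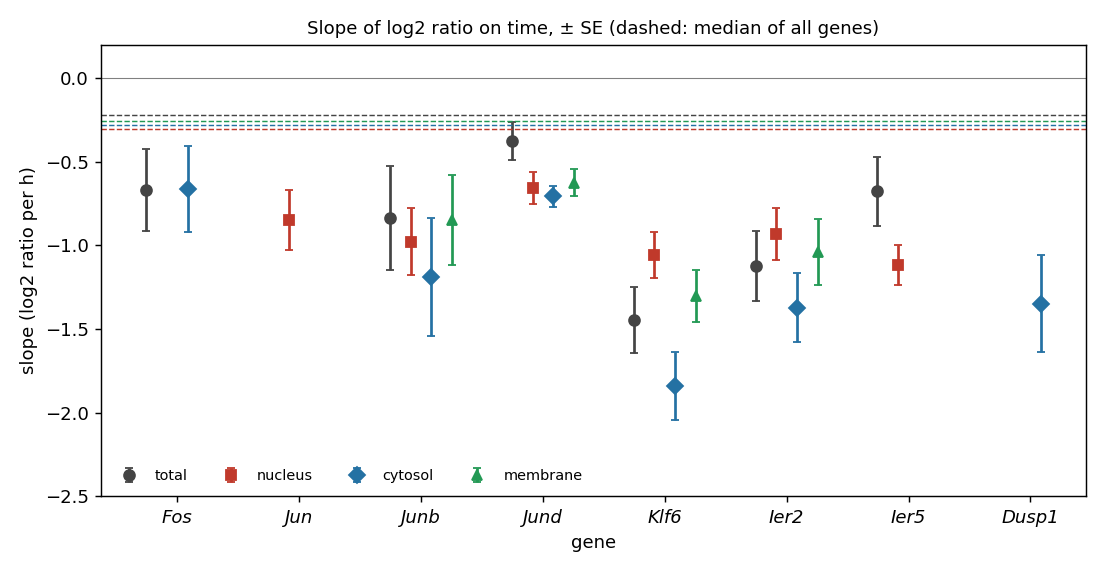
Slope of the log2 ratio on time, in log2 units per h, for each immediate early gene listed in all 12 libraries of a fraction, with bars of 1 SE from limma and dashed lines at the median of all genes per fraction. All points lie below the dashed line of their fraction, with Klf6 in the cytosol lowest at -1.84 and Jund in total RNA highest at -0.38.

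The time points were then compared step by step, since a fall that ends early is poorly described by a slope. At 30 min the ratio was below the 0 min level for 5 of 6 tested genes in total RNA, where 8.24% of all genes were lower, for 5 of 6 in the nucleus (35.1%), for 4 of 6 in the cytosol (8.16%) and for 3 of 4 in the membrane fraction (7.0%). Jund was the gene without a call in all 4, at -0.45 ± 0.21 (total), -0.35 ± 0.19 (nucleus), 0.30 ± 0.13 (cytosol) and 0.06 ± 0.21 log2 (membrane; SE). In the cytosol Junb, at -0.73 ± 0.44, also had no call. Fos had the lowest values, at -2.27 ± 0.47 in total RNA (limma adjusted p = 0.024) and -1.92 ± 0.18 in the cytosol (limma adjusted p = 0.00158), followed in total RNA by Ier5 at -2.23 ± 0.26. Left-out replicates lowered these counts, to 0 or 1 in total RNA, to 3 for the nucleus and to 0 for cytosol and membrane, and without the low nuclear library the nuclear count was 3 as well. With libraries centred on their median gene the counts were 2 in total RNA (1.78% of all genes) and 3 in the nucleus (13.8%, with 20.8% higher), and scaled to mt-encoded mRNAs the cytosol had 2 lower and 1 higher (Jund), where 0.417% of all genes were lower and 54.0% higher. With fewer libraries the calls of all genes also fell, to between 0 and 0.279% in total RNA.

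Between 30 and 60 min the genes fell further. All 3 ratios at 60 min lay below all 3 at 30 min for 7 of 8 genes in total RNA, with Jund the exception, where 32.2% of all genes listed at 30 min did so. A gene not listed at 60 min was taken as 0 here, which applies to Fos in the nucleus, listed in 1 of 3 libraries. The same held for 8 of 8 in the nucleus (24.1%), 8 of 8 in the cytosol (24.3%) and 7 of 8 in the membrane fraction (40.5%), where Jun overlapped. By the limma contrast 3 of 6 fell in total RNA (Ier2, Ier5 and Klf6), where 2.32% of all genes did, 2 of 6 in the nucleus (Junb and Ier2; 2.18%), 4 of 6 in the cytosol (Fos, Dusp1, Ier2 and Klf6; 1.89%) and 3 of 4 in the membrane fraction (Junb, Ier2 and Klf6; 12.7%). Ier2 was called in all 4, at -1.58 ± 0.18 (total), -1.86 ± 0.28 (nucleus), -1.95 ± 0.21 (cytosol) and -2.05 ± 0.30 log2 (membrane; SE; limma adjusted p = 0.00802, 0.0216, 0.0083 and 0.00879). Dusp1 in the cytosol fell by 2.87 ± 0.35 log2 (limma adjusted p = 0.0138), lower than all but 0.0167% of genes. In total RNA, cytosol and membrane no call was left without any 1 replicate, where over all genes at most 0.0312% were called, and in the nucleus none was left without replicate 2 or replicate 3. Without the low nuclear library at 30 min 5 genes were called in the nucleus, beside 25.3% of all genes.

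The fall from 30 to 60 min was larger than that from 0 to 30 min for 7 of 8 genes in the cytosol, as for 56.5% of all genes listed at both times, for 7 of 8 in the membrane fraction (68.7% of all genes), 6 of 7 in the nucleus (46.8%) and 5 of 8 in total RNA (55.6%). The count in total RNA was near the share of all genes. Medians over the genes for the first and the second interval were -0.84 and -1.86 log2 (cytosol), -1.21 and -2.04 (membrane), -1.36 and -1.71 (total) and, almost equal, -1.41 and -1.44 (nucleus). Over all genes they were -0.11 and -0.15 (cytosol), -0.13 and -0.30 (membrane), -0.23 and -0.25 (total) and -0.40 and -0.31 (nucleus). In the cytosol Junb went from -0.73 in the first interval to -2.43 in the second, and Jund from 0.30 to -0.82. This comparison was chosen after the values had been seen and was not tested. The counts were 7, 7, 6 and 5 also with libraries centred on their median gene, beside 52.0%, 52.5%, 52.3% and 55.7% of all genes.

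From 60 to 240 min 5 of 6 tested genes fell in total RNA, where 49.1% of all genes did, 6 of 6 in the nucleus (52.8%), 6 of 6 in the cytosol (63.0%) and 4 of 4 in the membrane fraction (53.9%). Fos in total RNA was the gene without a call, at -0.66 ± 0.67 log2 (SE). Klf6 had the largest fall of this interval in total RNA, cytosol and membrane, at -3.56 ± 0.22, -4.99 ± 0.20 and -3.35 ± 0.25 log2, and in the nucleus Ier5 did, at -2.96 ± 0.41. With libraries centred on their median gene the count in total RNA was 2 of 6, near the 28.6% of all genes that fell, and 24.7% rose. It was 2 in the nucleus (14.0% of all genes) and 3 in the cytosol (16.5%) with libraries scaled to mt-encoded mRNAs. Centred counts were 5 of 6 in the nucleus (28.0% of all genes fell and 24.4% rose), 4 of 6 in the cytosol (32.2% and 24.8%) and 3 of 4 in the membrane fraction (29.9% and 25.1%).

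Half-lives were fitted as a single exponential on the linear scale, with the starting level free and genes not listed taken as 0, which is a description without a test. The median over the 8 genes was 18.3 min (total), 20.6 min (nucleus), 16.9 min (cytosol) and 15.3 min (membrane), and the medians of all genes listed in the 3 libraries of 30 min, as these 8 were, were 199, 136, 182 and 179 min. A half-life under 30 min was found for 7 of 8 genes in total RNA, where 6.98% of those genes had one, for 6 of 8 in the nucleus (11.9%), 7 of 8 in the cytosol (5.19%) and 6 of 8 in the membrane fraction (6.66%). With the filter of a value in each of the 12 libraries the counts were 5 of 6, 4 of 6, 5 of 6 and 3 of 4, against 1.92%, 3.93%, 1.54% and 2.01%. These values are shorter than the first sampling time and rest on the fall between 30 and 60 min. Dusp1 had 11.5 ± 4.6 (total), 14.4 ± 0.3 (nucleus), 10.8 ± 1.7 (cytosol) and 11.4 ± 0.5 min (membrane; SD over 3 replicate series). Ier2 had 19.3 ± 1.1, 17.6 ± 5.4, 15.7 ± 1.0 and 15.5 ± 2.3 min, and Klf6 had 16.8 ± 3.8, 23.6 ± 8.7, 18.7 ± 2.1 and 22.1 ± 5.3 min in the same order. The ranges of the replicate series of Ier2 and Klf6 in the nucleus overlapped those in the cytosol. Jund had the longest values, with 119 ± 85 (total), 65.9 ± 15.6 (nucleus), 55.3 ± 21.2 (cytosol) and 75.5 ± 70.6 min (membrane). Single replicate series overlapped in 2 fractions. In the nucleus the lowest of Jund was 53.9 min and the highest of Ier5 was 74.6 min. In the membrane fraction the lowest of Jund was 44.6 min and the highest of Jun was 85.9 min.

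The fitted half-lives depend on the scaling and on the form of the curve. With libraries centred on their median gene the medians over the genes were 22.8, 30.9, 18.8 and 18.6 min in total RNA, nucleus, cytosol and membrane, and a half-life under 30 min was found for 7, 4, 7 and 6 of 8, beside 4.11%, 6.18%, 3.29% and 3.42% of all genes listed at 30 min. Jund was then at 335, 174, 101 and 159 min in the same order, and in total RNA without replicate 1 it was at 202 min. In the nucleus centring moved Jun from 27.5 to 51.2 min, Ier5 from 36.8 to 72.2 min, Klf6 to 36.4 min and Ier2 to 25.4 min. Starting levels fitted between 0.491 and 7.73 of the 0 min level, and with the level fixed at 1 the medians over the genes were 20.9, 20.3, 27.3 and 22.2 min in total RNA, nucleus, cytosol and membrane. A straight line on the log2 ratio gave 64.0, 63.4, 47.4 and 79.1 min. It gives the late low values equal weight and leaves out libraries in which a gene was not listed. For genes with gaps it therefore differs from the main fit in its data as well as its form. For Dusp1 in the cytosol the 3 fits gave 10.8, 16.9 and 44.5 min, and for Klf6 in the cytosol 18.7, 31.2 and 32.6 min. For Fos 1 replicate series of the membrane fraction gave no finite half-life, its ratio at 240 min being 0.126.

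**Figure D3:**
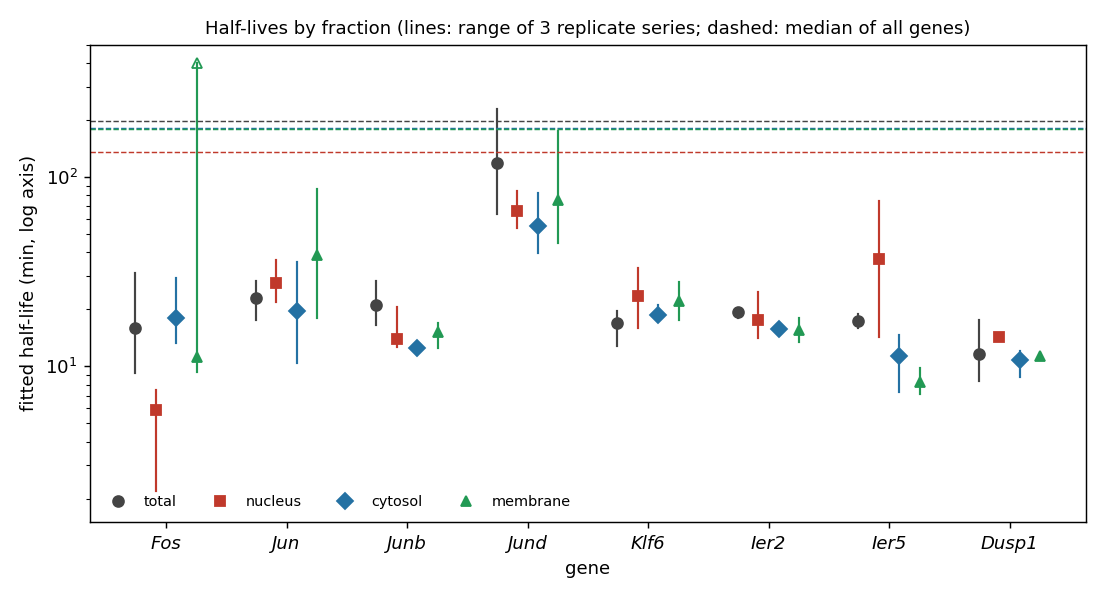
Fitted half-life in min (log axis) for the 8 immediate early genes in each fraction, from all 3 replicates (symbols), with lines over the range of the 3 single-replicate fits and dashed lines at the medians of all genes listed at 30 min (199, 136, 182 and 179 min). An open triangle marks a series without a finite half-life. The symbols of Jund lie between 55.3 and 119 min, and those of the other genes lie between 5.85 and 38.7 min. The line of Jund overlaps that of Ier5 in the nucleus and those of Jun and Fos in the membrane fraction.

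Fractions were compared by the difference in slope, for the 4 genes listed in every library. Klf6 fell less steeply in the nucleus than in the cytosol, by 0.79 ± 0.25 log2 per h (SE; limma interaction of time with fraction, adjusted p = 0.0269). It was the only 1 of 4 called, where 12.3% of all genes had a higher slope in the nucleus. With centring Klf6 was also the 1 called, beside 20.1% of all genes, so that count is near the share of all genes. The difference of Ier2 was 0.44 ± 0.26, that of Junb 0.21 ± 0.41 and that of Jund 0.05 ± 0.11. The median over all genes was 0.03. Without any 1 replicate the call of Klf6 was lost, at 0.73 to 0.88, and with 0.1 added to all ratios it was lost at 0.13. From 120 min on the mean ratios of Klf6 in both fractions lay below 0.1. The addition therefore shrinks the difference by construction and cannot test the call. Scaled to mt-encoded mRNAs the difference of Klf6 was 0.84 and not called. Between membrane and cytosol none of the 4 was called (6.7% of all genes in either direction), with differences from 0.08 ± 0.11 for Jund to 0.54 ± 0.26 for Klf6. None of the 4 was called between nucleus and membrane either (8.35%), with differences from -0.13 ± 0.34 for Junb to 0.25 ± 0.21 for Klf6. At an unadjusted p under 0.05 limma called 1 of 4 between membrane and cytosol (Klf6) and 0 of 4 between nucleus and membrane.

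At single time points the nucleus and the cytosol were compared in the 6 libraries of each time, a comparison chosen after the values had been seen. The error of the 0 min level of each fraction is not in these SEs and p-values, which are therefore too small. At 120 min 3 of 6 tested genes had higher ratios in the nucleus (13.8% of all genes did). Klf6 differed by 2.04 ± 0.31 log2 (limma adjusted p = 0.00389), Dusp1 by 1.88 ± 0.32 (limma adjusted p = 0.00594) and Ier2 by 0.97 ± 0.28 (limma adjusted p = 0.0342), and the median of all genes was -0.26. All 3 nuclear ratios of Dusp1 (0.0385, 0.0244 and 0.0310) lay above its 3 cytosolic ones, which were 2 or 3 steps each. At 240 min 2 of 5 were higher in the nucleus (18.5% of all genes), Klf6 by 2.51 ± 0.37 (limma adjusted p = 0.00292) and Ier2 by 0.99 ± 0.31 (limma adjusted p = 0.038). At 60 min 1 of 7 was lower in the nucleus (31.9% of all genes), Jund by 0.97 ± 0.15 (limma adjusted p = 0.00627). The count at 60 min was below the share of all genes. With centring the same genes were called, beside 34.3% of all genes higher at 120 min, 37.5% higher at 240 min and 14.2% lower at 60 min. The counts at 240 and 60 min were then near the share of all genes. The direction of Ier2 depended on the scaling: at 120 min it was -0.58 with libraries scaled to mt-encoded mRNAs, which moved the median of all genes to -1.81, while Dusp1 and Klf6 stayed higher in the nucleus, at 0.32 and 0.49 without a call. At 240 min Klf6 was called also under that scaling, at 2.03. Among all genes Klf6 ranked above 99.2% at 120 min and 99.6% at 240 min, and Ier2 above 93.2% and 90.3%, ranks that a common scaling does not move. Without replicate 3 only Klf6 was called at 120 min, beside 6.58% of all genes. The calls of Ier2 at 120 and 240 min were lost without any 1 replicate (0.92 to 1.05 and 0.93 to 1.09), and that of Jund at 60 min without replicate 1 (-0.89) or replicate 2 (-1.01).

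**Figure D4:**
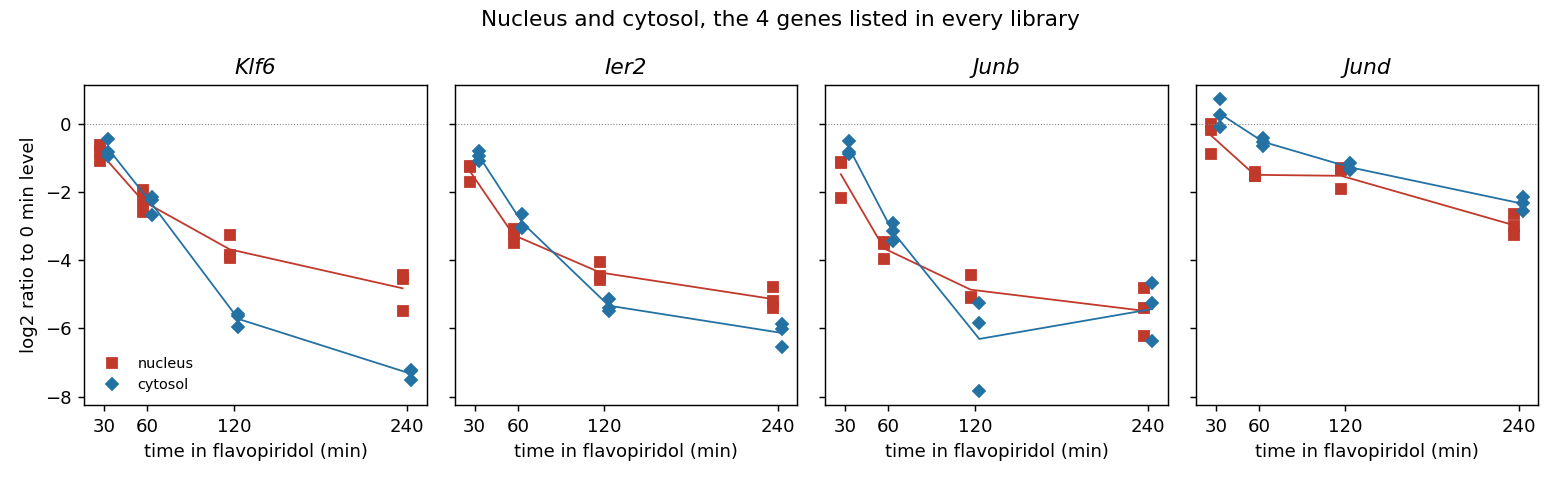
Log2 ratio to the 0 min level against time in flavopiridol in min for the 4 genes listed in every library, in nucleus (squares) and cytosol (diamonds), 1 point per library with lines through the means of 3 replicates. The nuclear points of Klf6 lie above its cytosolic ones at 120 and 240 min, by 2.04 and 2.51 log2 on average, while those of Jund lie below at 60 min, by 0.97.

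Other genes of the response were counted from fixed lists. Of 50 other primary response genes, which follow the same signals, 44 were listed and 28 could be tested in total RNA, where 25 fell and none rose, beside 56.9% of all genes falling. In the nucleus 23 of 27 fell (61.9% of all genes), in the cytosol 25 of 27 (67.1%) and in the membrane fraction 21 of 25 (62.2%), and none rose. Their median slopes were -1.17, -0.92, -1.32 and -1.15 log2 per h in total RNA, nucleus, cytosol and membrane, beside medians over all genes of -0.22, -0.30, -0.28 and -0.26. The steepest in total RNA were Btg1, an antiproliferative gene, at -1.66 ± 0.13, Ier5l, a relative of Ier5, at -1.65 ± 0.25 and Plk2, a kinase gene, at -1.42 ± 0.08 (SE). In the nucleus they were Dusp5, a phosphatase gene related to Dusp1, at -1.51 ± 0.13, Btg1 at -1.44 ± 0.09 and Plk2 at -1.38 ± 0.08. Cytosolic slopes were lowest for Ier5l at -2.13 ± 0.20, the Notch target Hes1 at -1.88 ± 0.18 and Nfkbia, which encodes an inhibitor of NF-κB, at -1.79 ± 0.20. Membrane slopes were lowest for Sertad1 at -2.16 ± 0.18, the small GTPase gene Rhob at -1.73 ± 0.09 and Nfkbia at -1.72 ± 0.22. The shallowest in total RNA were Zfp36l2, which encodes a protein that binds AU-rich elements, at -0.11 ± 0.15, the clock gene Per1 at -0.13 ± 0.08 and Trib1 at -0.43 ± 0.33, none of them called. In the cytosol the shallowest were Per1 at -0.11 ± 0.08, Zfp36l2 at -0.49 ± 0.12 and Trib1 at -0.78 ± 0.38, and of these Zfp36l2 was called (limma adjusted p = 0.00275). In the nucleus Fosl2, of the Fos family, was highest at 0.14 ± 0.22, with Trib1 at 0.05 ± 0.27 and Zfp36l2 at 0.03 ± 0.13. In the membrane fraction Zfp36l2 was at 0.07 ± 0.11, Per1 at -0.05 ± 0.18 and Fosl2 at -0.25 ± 0.21, and none of these nuclear and membrane slopes was called.

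Of 17 upstream kinases and factors that drive these genes, 12 were tested in total RNA, where 9 fell (56.9% of all genes did) and the median slope was -0.22 log2 per h, beside -0.22 over all genes. In the nucleus 7 of 12 fell and 1 rose (61.9% of all genes fell), with a median of -0.18 beside -0.30. In the cytosol 11 of 11 fell (67.1%), with a median of -0.36 beside -0.28, and in the membrane fraction 10 of 12 fell (62.2%), with a median of -0.25 beside -0.26. Other basic leucine zipper partners had medians of -0.35 (total), -0.31 (nucleus), -0.48 (cytosol) and -0.41 log2 per h (membrane), beside -0.22, -0.30, -0.28 and -0.26 over all genes. In the same order 8 of 9, 7 of 10, 8 of 10 and 8 of 9 fell, beside 56.9%, 61.9%, 67.1% and 62.2% of all genes. The counts in nucleus and cytosol were near the share of all genes.

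The genes whose time courses lay nearest were sought by the root mean square difference of the 16 mean log2 ratios, over 10694 genes listed in every library. The other immediate early genes and genes with Gm, Rik or -ps names were left out of the ranking. For Ier2 these were Klf3 at 0.33, Spry2 at 0.35 and Irf2bp2 at 0.41 log2, and for Klf6 they were Zfp748 at 0.34, Tob1 at 0.38 and Hes1 at 0.42. Among the genes ranked, Junb had none as near, with Klf3 at 0.61, Irf2bp2 at 0.74 and Pim3 at 0.77. Junb stood at 1 to 13 steps at 120 min and at 3 to 19 at 240 min. The nearest to Jund were Sh3bp1, Trim8 and Nr2f6, each at 0.26.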

How the data were processed

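Polyadenylated RNA was measured in 48 libraries, grouped by fraction and time from the sample titles, with 3 replicates per group. As given in the labels and methods, the authors used STAR 2.7.6 for alignment, counted them with RSEM 1.3.3 (build mm10), scaled libraries on genes with long known half-lives and divided by the 0 min level, so the deposited values are ratios to 0 min. The scaling fixes the direction of slow changes. The longest treatment, 240 min by the titles but 180 min by the protocol, was taken as 240 min. Symbols were matched for 23786 of 23862 identifiers. Gene models came from GENCODE M21 (GRCm38).

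Log2 ratios without a pseudocount entered limma 3.58.1 (R 4.3.3) through lmFit and trended eBayes, two-sided, over genes listed in every library of a fit, with Benjamini-Hochberg adjustment over all of them. Half-lives were least-squares fits of a single exponential in Python 3.11.15 with scipy 1.17.1, with genes not listed taken as 0. The straight-line alternative used listed libraries only. All 10 genes were to be named in every fraction, and of the other primary response genes the 3 lowest and 3 highest slopes per fraction. Members and lists were chosen with earlier results of these data known. The methods were tested on simulated data. Alternatives covered library scaling, pseudocount, filter, replicate block, trend, left-out libraries, a shorter window and 180 min as the last time. Depth is not stated in the files, and no interval for counting error is given.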

Additional observations from a re-analysis of the deposited data

Results flagged for a closer look

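Effects that differed between fractions by a test of the difference are listed here. The slope of Klf6 was higher in the nucleus than in the cytosol by 0.79 log2 per h. At single time points, in a comparison chosen after the values had been seen, Jund was lower in the nucleus than in the cytosol at 60 min, by a difference of -0.97 log2. At 120 min the nucleus exceeded the cytosol by 2.04 for Klf6, by 1.88 for Dusp1 and by 0.97 for Ier2. At 240 min it exceeded the cytosol by 2.51 for Klf6 and by 0.99 for Ier2. Groups of 3 replicates were not searched for outlying samples.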

How the results depend on the processing

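Of 450 alternative counts of called genes 385 stayed within 1.5 times the count reported, and of 1104 alternative values of single genes 887 kept their direction and their side of the threshold, 172 lost the call, 23 gained it and 22 changed sign. Of 264 alternative half-lives 189 moved by less than 1 SD of the replicate series, and with centring 18 of 32 did not. Fos in the membrane fraction had no finite SD, and all its alternatives were counted as moved whatever their size. The comparison of nucleus and cytosol at single time points and its alternatives, and the background of the half-lives, were added after the data had been seen. Except where stated, the cause of a change was not tested. Shares of all genes are in brackets. Centring libraries on their median gene removes the common decline by construction. With it 2 genes fell by slope in total RNA (30.9%), and 2 (total, 1.78%) and 3 (nucleus, 13.8%) were lower at 30 min than at 0 min. At 240 min 2 were lower than at 60 min in total RNA (28.6%). With libraries scaled to 7 mt-encoded mRNAs, 2 were lower (0.417%) and 1 higher (54.0%) at 30 min in the cytosol. At 60 min 0 were lower than at 30 min in the nucleus (0.24%). At 240 min 2 (nucleus, 14.0%) and 3 (cytosol, 16.5%) were lower than at 60 min. With that scaling 0 had a higher slope in nucleus than cytosol (0.0089%). In the nucleus 2 were lower (83.6%) and 0 higher (0.162%) than in the cytosol at 120 min, and 1 was higher at 240 min (3.34%). With a pseudocount of 0.1, 1 was higher at 30 min in the cytosol, 5 (total) and 5 (nucleus) were lower at 60 min than at 30 min, 0 had a higher slope in nucleus than cytosol, and 1 was lower and 1 higher in the nucleus at 240 min. With no filter as well, 7 were lower at 30 min and 6 at 60 min in the membrane fraction, 5 at 60 min in the nucleus, and 0 had a higher slope in nucleus than cytosol. Without the trend, 4 were lower at 60 min in the nucleus and 1 lower in nucleus than cytosol at 240 min. Without the low nuclear library 3 were lower at 30 min and 5 at 60 min in the nucleus. With 30, 60 and 120 min only, 1 gene had a higher slope in membrane than cytosol and 1 in nucleus than membrane.

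Same-numbered replicates deviated together little, with correlations over 0.1 in 1 of 36 pairs across fractions and 6 of 72 across times. The main fits therefore did not pair the samples by number. By the protocol the fractions of a culture came from the same harvested cells, and low correlations do not exclude such pairing. With the replicate block 0 genes were lower at 60 min than at 30 min in the nucleus (0.0824% of all genes). In that fit 1 was lower in nucleus than cytosol at 240 min (30.1%), and 42 other counts stayed within 1.5 times. In the nucleus 6 genes still fell by slope with the replicate block (60.4%).

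Without single replicates, which leaves fewer samples, the ranges were 3 to 5 falling by slope in total RNA. At 30 min they were 0 to 1 in total RNA, 3 to 3 in the nucleus, 0 to 0 in the cytosol and 0 to 0 in the membrane fraction. At 60 min against 30 min they were 0 to 0 in total RNA (0%) and 0 to 3 in the nucleus (0 to 5.43%). In the same comparison they were 0 to 0 in the cytosol (0%) and 0 to 0 in the membrane fraction (0 to 0.0312%). At 240 min against 60 min they were 3 to 4 in total RNA (35.0% to 45.7%). A higher slope in nucleus than cytosol was found for 0 to 0 (2.73% to 5.79%). Between nucleus and cytosol they were 0 to 1 lower at 60 min (8.3% to 14.8%). They were 1 to 2 higher at 120 min (5.05% to 7.3%) and 1 to 1 higher at 240 min (8.54% to 12.4%).

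Signs changed in values without a call, apart from 2: Fos in the cytosol at 240 against 60 min (0.021, scaled to mt-encoded mRNAs) and Ier2 between nucleus and cytosol at 120 min (-0.58, the same scaling). Fos in total RNA at 240 against 60 min ranged from -1.49 to 0.28 without single replicates. Jund at 30 min in the membrane fraction was -0.25 with the mt-encoded scaling and -0.10 to 0.30 without single replicates, and in the nucleus 0.072 with centring. Jund at 60 against 30 min in total RNA ranged from -0.13 to 0.24 without single replicates. The slope difference of Junb between nucleus and membrane was 0.25 (mt-encoded scaling), 0.0040 (pseudocount, with and without the filter), 0.67 (30, 60 and 120 min) and -0.38 to 0.14 (without single replicates). That of Jund was 0.020 (centring), 0.35 (mt-encoded scaling), 0.018 (pseudocount, with and without the filter), 0.084 (30, 60 and 120 min) and -0.12 to 0.088 (without single replicates). Jund's difference between membrane and cytosol was -0.25 (mt-encoded scaling), and that between nucleus and cytosol -0.032 to 0.10 without single replicates.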
